A study of Mus musculus with 2 samples.

Results

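Mitosis in regenerating liver was described through 42 genes whose products build the spindle, attach chromosomes to it and divide the cell. The genes were chosen by symbol, as known parts of this machinery, with earlier results of these data known. All 42 of them were found among the 34745 genes of the authors' table. The RNA came from the liver of male mice, 8 to 10 weeks old, at day 3 after partial hepatectomy (PH), an operation that removed 70% of the liver and drives the remaining cells to divide. The genotypes compared were miRNA-182 KO, which the study's methods describe as heterozygous miR-182-5p knockout mice that keep an intact copy of the gene, and wild-type (WT). Both groups had PH, so neither holds a resting liver. The knockout is not restricted to a liver cell type, the strain of the KO mice is not given in the sources used here, and neither is the number of mice per library. Each genotype was sequenced as 1 library, so no difference has a replicate check, tests compare the 2 libraries rather than the genotypes, and intervals cover counting error only.

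A dividing hepatocyte replicates its DNA in S phase, condenses its chromosomes and builds a bipolar spindle of microtubules. Kinetochores assemble on the centromeres and bind the microtubule ends, kinesins move chromosomes and slide microtubules apart, and the chromosomal passenger complex corrects faulty attachments. After anaphase the central spindle and the midbody place the contractile ring that splits the cell, a step that hepatocytes often skip, which leaves them binucleate or polyploid. Most of these genes are transcribed late in the cell cycle, largely through promoters with CHR elements and CCAAT boxes, and their mRNA is scarce in a resting liver. In RNA from whole tissue, fewer cells in mitosis and less RNA per mitotic cell cannot be told apart.

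The KO library held less RNA of this machinery than the WT library. The 42 genes together took 4444 reads in KO and 11996 in WT, from total counts of 13247497 and 13163348. After scaling by TMM, an edgeR method that limits the weight of the most abundant genes, these sums were 413 and 739.8 CPM (counts scaled to a common library size), a log2 fold change of −0.84 (exact 95% interval −0.89 to −0.79). The log2 fold change of KO over WT was below 0 for 40 of the 42 genes and for 6778 of the 13561 genes tested. The median over the 42 genes was −0.97 and the median over all genes tested was 0.00. The middle of the distribution, between its quartiles, ran from −1.25 to −0.57, against −0.44 to 0.43 over all genes tested.

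A gene was counted as lower or higher when its log2 fold change was at least 1 in size and its p-value from a two-sided exact binomial test, adjusted over all genes tested, was under 0.05. By these criteria 18 of the 42 genes (42.9%) were lower in the KO library, while 8.32% of all genes tested were lower. None was higher, with or without the test, while 7.97% of all genes tested were higher. At any size of change, the adjusted p-value passed for 33 of the 42 genes in the lower direction, where 24.1% of all genes passed. In the higher direction it passed for *Prc1* alone, where 23.6% of all genes passed. Of the 22 genes below 0 that missed the criteria, 13 had an interval that reached −1, so for them a 2-fold fall was within counting error.

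**Figure D1:**
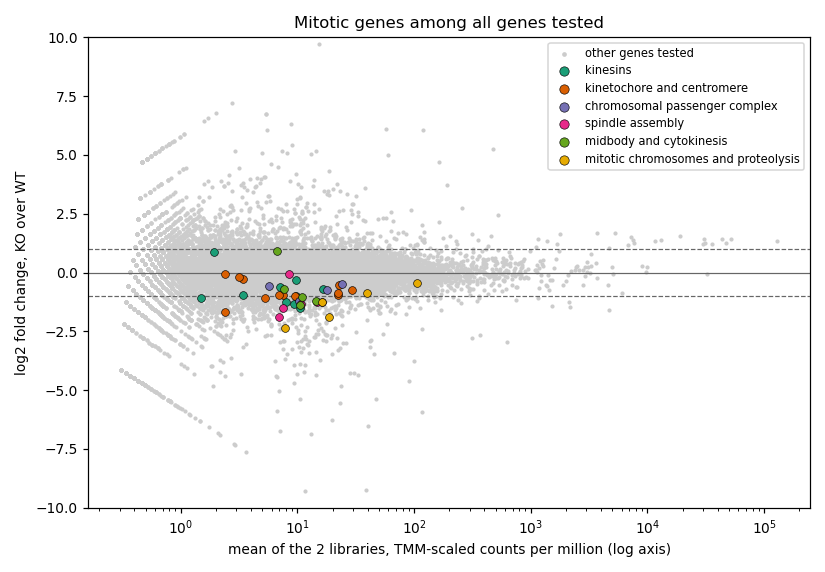
Each point is a gene, with the mean of the 2 libraries in TMM-scaled CPM on a log axis and the log2 fold change of KO over WT on the vertical axis, for the 13561 genes tested (grey) and the 42 mitotic genes (coloured by role). Dashed lines mark a 2-fold change, and 40 of the 42 genes lie below 0 while the grey cloud is centred on it.

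The size of the fall depended on how the libraries were put on a common scale. In KO, 51.7% of all counts (exact 95% interval 51.6% to 51.7%) lay on the 13 protein-coding mitochondrial genes, against 31.0% in WT (30.9% to 31.0%), which leaves fewer reads for every nuclear gene of the KO library. Scaled by total counts alone, the median of all genes tested moved to −0.60 and the median of the 42 genes to −1.57. The number of the 42 genes counted as lower then rose from 18 to 35, where 25.0% of all genes tested were lower, and all 18 stayed among them. Relative to the median of all genes, 40 of the 42 genes were lower. Total counts move all genes down by nearly the same amount, so neither this count nor the 18 that stayed is a separate check. The part that the mitochondrial share has in the result beyond this shift was not tested.

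Levels were compared between genes per length, on the FPKM of the authors' table, which divide reads by gene length and by the size of the library. That size keeps the mitochondrial reads, so FPKM serve here to order genes within a library and not to size a fall between libraries. In the WT library the highest of the 42 was *Cenpm*, a small subunit of the inner kinetochore, at 37.4 FPKM, followed by *Spc24* at 26.7 FPKM, *Mki67* at 15.0 FPKM and then *Ube2c*, just above *Cdca3* with its 12.7 FPKM. In the KO library *Cenpm*, *Spc24* and *Mki67* kept the top places at 14.7, 8.95 and 7.29 FPKM, whereas *Ube2c* stood at 2.28 FPKM and held place 8. The length implied by reads and FPKM was within 1 base of the exonic length in GENCODE release M21 for 1 of the 42 genes, and the lengths behind the FPKM are not given in the sources used here. By CPM per kilobase of that exonic length, *Cenpm* was again the highest in WT at 22.5, but *Cdca3* came next at 17.8, before *Mki67* at 12.2 and *Spc24* at 11.4. In KO *Cdca3*, at 9.64 on this scale, was likewise above *Mki67* at 8.99 and *Spc24* at 5.78, so the order below *Cenpm* depended on the length used. On the FPKM scale the lowest in the WT library were *Kif18a* at 0.141 FPKM and *Kif14* at 0.181 FPKM. *Mki67*, which encodes the Ki-67 protein of the mitotic chromosome surface and is a common marker of proliferation, took 21.9% of the KO reads on the 42 genes and 16.6% of the WT reads. Without it, the summed reads were 3471 in KO against 10007 in WT, a log2 fold change of −0.94 (exact 95% interval −0.99 to −0.88).

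**Figure D2:**
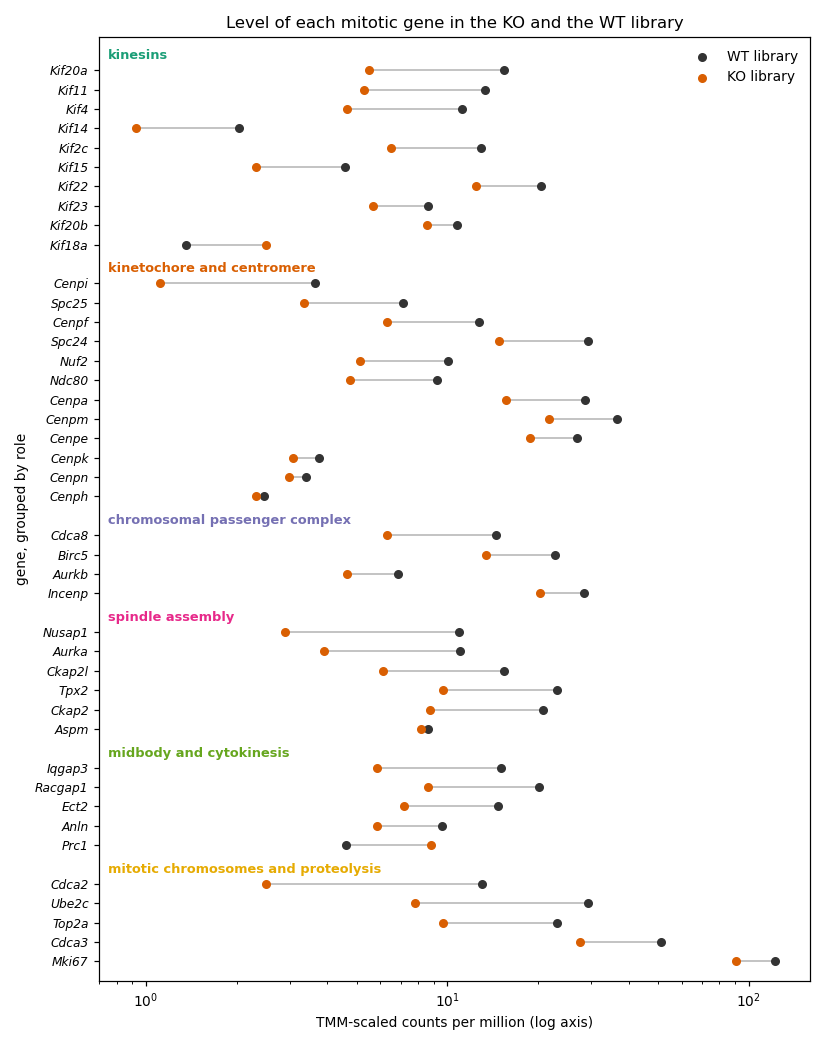
TMM-scaled CPM of each of the 42 genes on a log axis, in the KO library (orange) and the WT library (dark), grouped by role and ordered by fold change within a group. The KO point lies left of the WT point for 40 genes and right of it for *Kif18a* and *Prc1*.

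The 10 kinesins are motor proteins that walk along or dismantle microtubules. Where a pair of read counts follows a gene, the KO count comes before the WT count. The kinesins took 585 KO reads against 1632 WT reads, their median log2 fold change was −0.97, and 3 of the 10 were lower by the criteria. *Kif20a*, a kinesin of the central spindle and of cytokinesis, had 59 KO reads against 251 WT reads, with a log2 fold change of −1.49 (exact 95% interval −1.93 to −1.08, exact binomial test adjusted p = 5.21e-14). *Kif11*, the motor that pushes the spindle poles apart, had 57 and 217 reads, a log2 fold change of −1.33 (interval −1.78 to −0.91), and passed at an adjusted p of 1.99e-10 by the exact binomial test. *Kif4*, a chromosome-bound kinesin that also acts in the central spindle, had 50 and 181 reads and a log2 fold change of −1.26. These were the kinesins that passed the criteria.

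The other kinesins spread on both sides of 0. *Kif2c*, which depolymerizes microtubules at the centromere, had 70 KO reads against 209 WT reads, with a log2 fold change of −0.98 that stopped just short of the 2-fold line. *Kif15*, which helps to keep the spindle bipolar, was close to it at 25 and 74 reads and −0.96. *Kif14*, a cytokinesis kinesin, was past the line at 10 and 33 reads and −1.10, but its adjusted p of 0.0586 by the exact binomial test kept it from the criteria. *Kif22*, a motor on the chromosome arms, had 134 and 331 reads and −0.71. *Kif23*, the motor subunit of the centralspindlin complex, had 61 and 140 reads and −0.60. Both passed the adjusted p-value, at 4.25e-06 and 0.0153 by the exact binomial test, without a 2-fold change. *Kif20b*, a kinesin of late cytokinesis, had 92 and 174 reads, and its log2 fold change of −0.33 had an interval that included 0 (−0.71 to 0.05). *Kif18a*, which damps the oscillation of chromosomes at the spindle equator, was the only kinesin of the 10 above 0, at 27 and 22 reads and 0.87 (0.02 to 1.77, exact binomial test adjusted p = 0.0780).

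The 12 kinetochore and centromere genes all had a log2 fold change below 0, with a median of −0.91, and 3 of the 12 were lower by the criteria. The 4 subunits of the NDC80 complex, the rod that grips the microtubule, had nearly the same fold change. *Ndc80* had 51 KO reads against 150 WT reads and a log2 fold change of −0.96, *Nuf2* had 55 and 163 reads and −0.97, and *Spc24* had 160 and 474 reads and −0.97. *Spc25* had 36 and 116 reads and −1.09, and it was the only subunit past the 2-fold line, with an interval (−1.68 to −0.55) that held the values of the other three.

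Subunits of the inner kinetochore, which sits on the centromeric chromatin, did not share a fold change in this way. *Cenpi* had the largest fall of the group, with 12 KO reads against 59 WT reads and a log2 fold change of −1.67 (exact 95% interval −2.74 to −0.79, exact binomial test adjusted p = 1.92e-04). *Cenpm* had 234 and 591 reads and −0.74. The remaining subunits, *Cenpk* (33 and 61 reads, −0.29), *Cenpn* (32 and 55 reads, −0.19) and *Cenph* (25 and 40 reads, −0.08), had intervals that included 0. *Cenpi*, *Cenpm*, *Cenpk* and *Cenph* belong to the same subcomplex, and at these counts the intervals of *Cenpi* and *Cenph* still touched, the latter running from −0.87 to 0.67. *Cenpa*, the histone H3 variant that marks the centromere, was measured more precisely, at 169 and 463 reads and −0.86 (−1.12 to −0.60).

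Of the large proteins of the outer kinetochore, *Cenpf* passed the criteria and *Cenpe* did not. *Cenpf*, a farnesylated protein that accumulates in G2 and mitosis, had 68 KO reads against 206 WT reads, which put it on the 2-fold line (−1.42 to −0.60) and past the criteria. *Cenpe*, a kinesin that carries chromosomes to the spindle equator, had 203 and 438 reads and −0.52 (−0.76 to −0.27). Its adjusted p of 8.31e-05 by the exact binomial test passed without a 2-fold change.

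The 4 genes of the chromosomal passenger complex, which places the kinase Aurora B on centromeres and later on the midbody, had a median of −0.66. *Cdca8*, which encodes borealin, had 68 KO reads against 235 WT reads, with a log2 fold change of −1.19 (exact 95% interval −1.61 to −0.80) and the only call of the complex. *Birc5*, which encodes survivin, had 144 and 368 reads and −0.76 (−1.05 to −0.48). *Aurkb*, the kinase itself, had 50 and 111 reads and −0.55 (−1.07 to −0.06), with an adjusted p of 0.0503 by the exact binomial test, just past the threshold. *Incenp*, the scaffold, had 218 and 460 reads and −0.48 (−0.72 to −0.25). The interval of *Cdca8* did not overlap that of *Incenp*, but these are the extremes of the 4 genes, picked after their values were seen. The intervals cover counting error only, and whether the complex fell by a common factor was not tested.

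The spindle assembly genes included the largest share of calls of any of the 6 groups, at 5 of 6, and their median of −1.29 was the lowest. *Nusap1*, which binds and bundles spindle microtubules near the chromosomes, had 31 KO reads against 177 WT reads, with a log2 fold change of −1.91 (exact 95% interval −2.52 to −1.36, exact binomial test adjusted p = 8.76e-14). *Aurka*, the centrosomal kinase, had 42 and 179 reads and −1.49 (−2.02 to −1.01). *Tpx2*, which activates this kinase on the spindle, had 104 and 374 reads and −1.25. The related microtubule proteins *Ckap2l* and *Ckap2* had −1.33 and −1.25, from 66 and 251 reads for the former and 94 and 337 reads for the latter. The log2 fold changes of these genes ran from −1.91 to −1.25, whereas *Aspm*, a large protein of the spindle poles, had 88 and 140 reads and −0.08 (−0.48 to 0.32). Its interval did not overlap that of any other gene of the group.

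The 5 midbody and cytokinesis genes split in direction. *Iqgap3*, a scaffold of the cell cortex that rises with proliferation, had 63 KO reads against 245 WT reads and a log2 fold change of −1.36 (−1.79 to −0.96). *Racgap1*, the partner of *Kif23* in centralspindlin, had 93 and 326 reads and −1.21, and *Ect2*, the activator of RhoA that centralspindlin recruits, had 77 and 238 reads and −1.03. *Anln*, a scaffold of the contractile ring, had 63 and 156 reads and −0.71, which passed the adjusted p-value at 0.00226 by the exact binomial test without a 2-fold change. All of these had a log2 fold change below 0, and the intervals of *Racgap1* (−1.57 to −0.88) and *Kif23* (−1.06 to −0.16) overlapped.

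*Prc1* went the other way. It encodes the bundler of antiparallel microtubules on which the central spindle is built, and *Kif4* is the motor that it brings there. It had 95 KO reads against 75 WT reads, with a log2 fold change of 0.93 (exact 95% interval 0.48 to 1.39, exact binomial test adjusted p = 1.25e-04). The interval of *Kif4* (−1.75 to −0.80) lay wholly below it. Scaled by total counts, *Prc1* and *Kif18a* stayed above 0, at 0.33 and 0.28, and they were the only genes of the 42 to do so. The share of its exonic bases that lie opposite an exon of *Rccd1*, a gene on the other strand, is 11.1%, and *Rccd1* had 66 and 95 reads. Whether the counting used strand is not given in the sources used here, and the part of this overlap in the value for *Prc1* was not tested.

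The last group joins proteins of mitotic chromosomes with regulators of protein breakdown at mitotic exit, and it held the largest fall of all 42 genes. *Cdca2*, which targets a phosphatase to chromosomes as they decondense, had 27 KO reads against 211 WT reads, with a log2 fold change of −2.36 (exact 95% interval −3.01 to −1.79, exact binomial test adjusted p = 3.66e-21). *Ube2c*, the ubiquitin-conjugating enzyme of the anaphase-promoting complex, had 84 and 475 reads and −1.90 (−2.26 to −1.57, exact binomial test adjusted p = 4.43e-36). *Top2a*, which untangles sister chromatids, had 104 and 374 reads and −1.25. *Cdca3*, which acts in mitotic entry through breakdown of Wee1, had 297 and 827 reads and −0.88 (−1.08 to −0.69). *Mki67* had by far the most reads, 973 and 1989, and a log2 fold change of −0.44 (−0.55 to −0.33). Its fall was thus well outside counting error but smaller than that of 34 of the 42 genes.

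**Figure D3:**
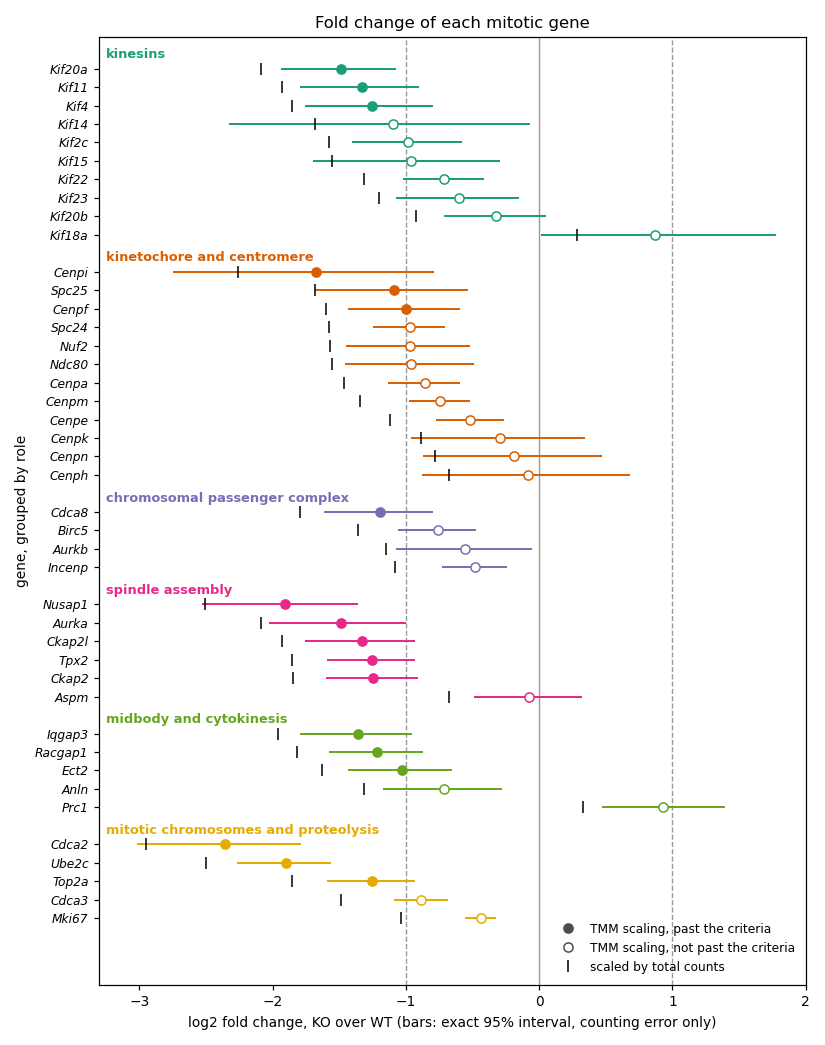
Log2 fold change of KO over WT for each of the 42 genes with its exact 95% interval (bars, counting error only). Filled circles passed the criteria, open circles did not, ticks give the value scaled by total counts, and dashed lines mark a 2-fold change. The 18 filled circles run from −2.36 for *Cdca2* to *Cenpf* on the 2-fold line, and *Kif18a* and *Prc1* lie right of 0.

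With 1 library per genotype the variation between mice is not measured, so the test was repeated with an assumed one. Under edgeR's exact test with a biological coefficient of variation of 0.2, 6 of the 42 genes were lower, *Kif20a*, *Aurka*, *Nusap1*, *Iqgap3*, *Cdca2* and *Ube2c*, where 3.27% of all genes tested were lower. With a coefficient of variation of 0.4 none of the 42 was, where only 58 of all 13561 genes tested were lower. The smallest adjusted p of the 42 by that exact test was 0.355, for *Cdca2*. Whether a single gene passes therefore depends on how much mice vary, which these data do not show.

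Promoter sequence was read from the RefSeq windows of build GRCm38.p6, which run from 250 bases before to 50 bases after each start, and 36 of the 42 genes had at least 1 window. The CHR element was searched as TTTGAA or TTCGAA and the CCAAT box as CCAAT, each on both strands, and the motifs shared bases in 1 of the 40 windows of these genes. A CHR element was present for 28 of the 36 genes (77.8%). It was present for 16.7% of the 9956 tested genes with a window and for 21.7% of all 27025 genes with a window. A CCAAT box was present for 26 (72.2%), against 43.1% and 41.1%. Both were present for 22 (61.1%), against 6.93% and 8.61%. Neither was found for 4 of the 36 genes. Within the last 100 bases before the start, 11 of the 36 had a CHR element, 22 a CCAAT box and 7 both. Over the tested genes with a window, these shares were 4.81%, 26.3% and 1.28%. The letters are frequent among these genes but not shared by all, and do not show that a factor was bound.

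The 100 bases before the start are printed in the direction of transcription, with matches in capitals, for genes that were lower and carry at least a CCAAT box close to the start, *Kif11* (chr19:37376282-37376381, + strand), *Top2a* (chr11:99024190-99024289, − strand), *Ckap2l* (chr2:129297213-129297312, − strand) and *Aurka* (chr2:172370571-172370670, − strand), whose CHR element lies outside these bases, and for *Kif18a* (chr2:109280638-109280737, + strand), which lay above 0 and has neither motif. Capitals TTCAAA are the CHR letters on the other strand, and ATTGG those of the CCAAT box. The genes printed are chosen examples. Not printed are *Prc1*, which lay above 0 and has both motifs in these bases, and *Nusap1*, which was lower and has neither.
Kif11: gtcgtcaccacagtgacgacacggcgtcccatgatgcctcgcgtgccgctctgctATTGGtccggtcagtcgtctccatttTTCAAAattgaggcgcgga
Top2a: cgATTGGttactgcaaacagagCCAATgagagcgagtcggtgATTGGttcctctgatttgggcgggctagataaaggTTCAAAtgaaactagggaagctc
Ckap2l: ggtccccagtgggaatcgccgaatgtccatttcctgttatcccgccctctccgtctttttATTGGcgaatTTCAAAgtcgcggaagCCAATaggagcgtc
Aurka: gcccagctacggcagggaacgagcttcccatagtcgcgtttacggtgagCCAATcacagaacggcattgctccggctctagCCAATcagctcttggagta
Kif18a: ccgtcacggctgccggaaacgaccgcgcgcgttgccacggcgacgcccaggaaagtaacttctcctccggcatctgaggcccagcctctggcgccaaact

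The fold change is given here by the presence of these motifs. The 28 genes with a CHR element had a median log2 fold change of −0.99, and the 8 without had −0.64. The ranges overlapped almost wholly, from −1.90 to 0.93 with the element and from −1.91 to 0.87 without. *Prc1*, which lay above 0, has both motifs, as do *Ube2c* and *Top2a*. *Nusap1*, with the second largest fall, has neither, and neither motif was found for *Kif18a*, *Nuf2* or *Birc5*. By the criteria, 13 of the 28 genes with a CHR element and 2 of the 8 without were lower, as were 12 of the 22 with both motifs and 3 of the 14 others. A relation between the motifs and the size of the fall was not tested.

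The microRNA that was knocked out, miR-182-5p, silences mRNAs that pair with its seed, bases 2 to 8, shown here in capitals to let the match be read. Its gene lies at chr6:30165962-30165986 on the − strand (mature arm, GRCm38.p6).
mmu-miR-182-5p: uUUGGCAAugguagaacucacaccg
The 8 bases of the site searched, TTGCCAAA, are the match to bases 2 to 8 followed by an A. This site was in the longest annotated 3′ UTR of 0 of the 42 genes. Of the 12541 tested genes with an annotated 3′ UTR, 690 had it there (5.50%). Shorter matches to the seed were not searched, so the count of 0 does not cover them. No row of the table was named *Mir182*, so the genotype labels could not be checked on the targeted gene.

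Other genes of cell division, from lists that hold none of the 42, were set beside them. The calls on these short lists stand beside the 8.32% of all genes tested that were lower and the 7.97% that were higher. The spindle checkpoint and mitotic kinases had a median log2 fold change of −0.80 with 7 of 17 lower and 0 higher. They were led by *Cdk1*, the kinase of mitotic entry, at 106 KO reads against 540 WT reads (−1.75), *Sgol1*, a guardian of cohesion, at 12 and 58 (−1.65), and *Nek2*, a centrosomal kinase, at 74 and 293 (−1.39). The other spindle and cytokinesis genes had a median of −0.997, slightly further from 0 than that of the 42 genes, with 9 of 19 tested lower. Of these, *Gtse1* had 28 and 129 reads (−1.60), *Melk* had 1 and 31 reads, and *Depdc1b* had 0 and 15. *Melk* had 0.0486 times its WT level in CPM, with a counting interval of 0.00119 to 0.292. For *Depdc1b*, without a KO read, the counting interval ran from 0 to 0.420 times its WT level. Set at the floor of 3 counts in the KO library, *Depdc1b* would be 3.32-fold lower, which is a set value and not a bound. *Cep55*, chosen here after its values were seen as the only gene of that list that was higher, had 18 and 10 reads and 1.39 (exact 95% interval 0.25 to 2.72). It acts late in cytokinesis, at abscission of the midbody.

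The remaining lists moved less. The other kinetochore and centromere genes had a median of −0.50 with 5 of 25 lower, among them *Cenpt* at 36 and 163 reads (−1.58), *Cenpw* at 13 and 54 (−1.44) and *Kntc1* at 22 and 80 (−1.26). The subunits of condensin, which compacts chromosomes, had a median of −0.73 with 3 of 8 lower, *Ncapg2* at 23 and 101 reads (−1.53), *Smc2* at 21 and 67 (−1.07) and *Ncaph* at 31 and 98 (−1.06). S phase genes had a median of −0.66 with 4 of 24 lower, led by *Gins2* at 4 and 46 reads (−2.81), *Cdt1* at 26 and 114 (−1.53) and *Rrm2* at 72 and 302 (−1.47). *Mcm10*, the only S phase gene that was higher and chosen after its values were seen, had 417 and 253 reads and 1.31. The medians of these lists were nearer to 0 than the −0.97 of the 42 genes, and the difference between lists was not tested.

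Kinesins of transport, most of which carry cargo whether or not a cell divides, share the motor domain with the mitotic kinesins. Their median was 0.23 over the 15 tested of 20. One direction did not prevail among them, with *Kif5a* higher at 48 and 33 reads (1.12), *Kif9* higher at 8 and 2 reads, and *Kif3b* lower at 4 and 25 reads (−1.95). *Kif9* was named after its values were seen, and its WT count is under the floor of 3. Scaled by total counts the median of the transport kinesins was −0.36, on the other side of 0, and that of the 10 mitotic kinesins was −1.57.

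**Figure D4:**
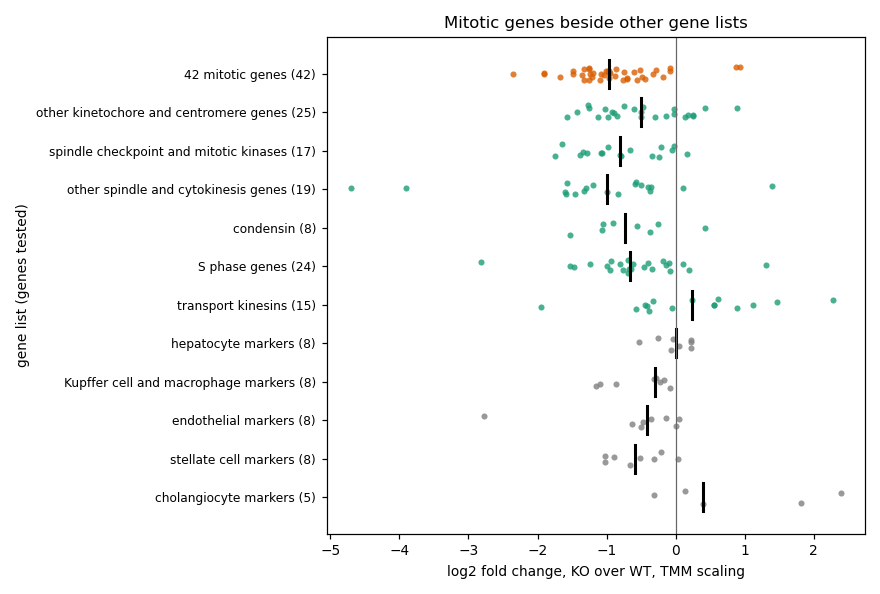
Log2 fold change of KO over WT of every gene tested in the 42 mitotic genes (orange), in other lists of division and kinesin genes (green) and in markers of liver cell types (grey), with the number of genes tested in brackets and black bars at the medians. The median is −0.97 for the mitotic genes, −0.997 for the other spindle and cytokinesis genes, −0.66 for S phase genes, 0.23 for transport kinesins and 0.01 for hepatocyte markers, and the leftmost points are *Depdc1b* and *Melk*, whose values depend on the prior count.

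Levels of marker genes of the liver's cell types are given because mitotic RNA could come from any dividing cell. Of all genes tested, 8.32% were lower and 7.97% were higher, and these shares stand beside the calls on short lists below. The 8 hepatocyte markers had a median of 0.01, with 0 called, and their summed level was 58350 CPM in KO and 59060 CPM in WT. The 8 Kupffer cell and macrophage markers had a median of −0.30 with 2 lower, at 135 and 179 CPM summed. The 8 stellate cell markers had −0.59 with 2 lower, at 98.0 and 145 CPM. The 8 endothelial markers had −0.42 with 1 lower (12.5%, near the share of all genes), at 97.7 and 114 CPM. Cholangiocyte markers had 0.40, with 2 of 5 tested higher, at 164 and 125 CPM. Most of that sum is *Spp1*, with 1638 of 1761 KO reads and 1875 of 2032 WT reads. The calls rest on few reads, *Krt19* at 26 and 7 and *Krt7* at 15 and 6. *Epcam* (0.14) and *Sox9* (−0.31) had intervals that included 0. Of the other lists, lymphocyte markers summed to 3.16 and 2.84 CPM over 8 genes, neutrophil markers to 32.6 and 30.5 CPM over 6 genes with *Ly6g* at 0 in both libraries, and erythroid markers to 78.5 and 67.2 CPM over 8 genes. The erythroid sum includes *Alas2*, which was higher at 535 and 347 reads, while 5 of the 6 tested erythroid markers were below 0, their median was −0.37, and *Hbb-bs* was lower at 64 and 200 reads (−1.05). The lower marker sums of macrophages, stellate cells and endothelial cells stand beside the fall of the 42 genes, and their part in it was not tested.

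Reads that could belong to another gene were checked for each of the 42. At most 2.50% of the 51-base words of any of them occur in transcripts of another gene. Exons of 11 of the 42 overlap another annotated gene, on the opposite strand except for a small RNA within *Top2a*, with the largest overlaps for *Kif20a* (29.3% of its exonic bases, with *Cdc23* at 119 and 180 reads), *Ube2c* (22.8%, with *Tnnc2* at 0 and 0 reads) and *Kif4* (15.1%, with *Pdzd11* at 232 and 420 reads). Over the 31 genes free of overlap the median was −0.96 and 11 were lower.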

How the data were processed

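Total RNA was extracted from whole liver, its poly(A) fraction was read on an Illumina HiSeq, and the submitters' processing notes name HISAT2 2.0.4, StringTie and edgeR with the human build hg38. The coordinates in the deposited table are those of mouse, and 30 of the 42 genes have the same start and end in GENCODE release M21 (GRCm38). The authors deposited raw read counts per gene, not normalized, together with FPKM, which they computed per library. Genes at 0 are listed too.

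A sum of at least 10 counts was asked of a gene, which left 13561 to test and all 42 among them. Library sizes were scaled by TMM (edgeR 4.0.16, R 4.3.3), with factors of 0.812 for KO and 1.23 for WT, so that 1 read equals 0.0930 CPM in KO and 0.0617 CPM in WT. Fold changes used a prior count of 0.5. Each KO count was compared with its expected share by a two-sided exact binomial test (scipy 1.17.1), with Benjamini-Hochberg adjustment over all genes tested. Intervals are exact 95% Clopper-Pearson intervals. The quasi-likelihood test could not be fitted with 1 library per genotype. The steps were tested on simulated counts. Groups came from the genotype labels.

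The 42 genes, the other lists and the tests were chosen with earlier results of these data known. Named genes are all 42, and of each other list of division genes and kinesins the 3 largest called changes where the higher library had 10 counts or more. Cell type markers are given as summaries, and single markers were named after their values were seen. Alternatives were total counts with and without the 13 mitochondrial genes, DESeq2 1.42.0 size factors, a prior count of 5, FPKM plus a pseudocount of 0.1, minimums of 1 and 50 counts, assumed variation, and no test. Leaving out overlapping genes was chosen after seeing the data.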

Additional observations from a re-analysis of the deposited data

How the results depend on the processing

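No paired analysis was possible because KO and WT were each sequenced once. The 42 genes had 0 calls in the higher direction under all 10 alternatives. Their largest value with TMM was 0.93, for *Prc1*, and most alternatives lower it or leave it unchanged, so this is a weak check. None of the 42 changed sign under the 7 scalings, filters and prior counts. The number called lower moved from 18 to 35 with total counts, 34 with the authors' FPKM, 6 and 0 with an assumed coefficient of variation of 0.2 and 0.4, and 11 over the genes free of overlap, of which there are fewer. It was 24 with total counts without the mitochondrial genes, where 1302 of all genes tested were lower. The median of −0.97 moved to −1.57 with total counts and −1.44 with FPKM, and the log2 fold change of the summed reads, −0.84, to −1.44 with total counts and −0.93 without the mitochondrial genes. Over all genes tested, 1081 higher and 1128 lower became 471 and 3397 with total counts, 364 and 2882 with FPKM, 656 and 728 with at least 50 counts (fewer genes tested), 488 and 444 with a coefficient of variation of 0.2, and 59 and 58 with 0.4. The median of the transport kinesins, 0.23, reversed to −0.36 with total counts and −0.30 with FPKM, both of which keep the mitochondrial reads in the library size. A prior count of 5 removed 2 of the 18 calls and a minimum of 50 counts 1, while 2 genes then had too few counts. Depth limits the genes with fewest reads, *Kif14*, *Cenpi*, *Kif18a* and *Cenph*, to intervals over 1.5 wide on the log2 scale, and the spread between mice is unknown.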
